A study of Mus musculus with 8 samples.

Results

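The BCL2 family of survival and death genes was followed in mouse embryonic stem cells (ESC) and in HC11 mammary epithelial cells (MEC) at 3 stages of lactogenic differentiation. Its members were chosen by gene symbol, namely Bcl2, Bcl2l1, Mcl1, Bcl2l11, Bmf, Bik, Bad, Bid, Bak1 and Bok, which are 10 of the 24062 genes measured. All 10 were among the 13210 genes that were tested, since each had at least 1 FPKM (fragments per kilobase of exon, scaled to the size of the library) in at least 2 libraries. Of these, 7 had at least 1 FPKM in every library. Bcl2 reached this level only in both N libraries and 1 P library, Bok only in the ESC and N libraries, and Bik in every library except those of N, so for these 3 genes the filter was passed through the groups in which they were high.

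Proteins of this family decide whether the outer mitochondrial membrane is opened during apoptosis. Effector proteins (BAK and its relatives) form the pores, antiapoptotic proteins (BCL2, BCL-XL, MCL1) hold the effectors and their activators in check, and BH3-only proteins (BIM, BMF, BIK, BAD, BID) bind the antiapoptotic proteins or activate the effectors through a short helix, the BH3 domain. In the mammary gland the family is best known from involution after weaning, when milk-producing epithelium dies, and BIM and BMF have been linked to the death of mammary epithelial cells that lose contact with the matrix.

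RNA was sequenced from 8 libraries, 2 for each group. ESC were the wild-type mouse line R1 (strain given in the labels as 129*1 * 129S1), grown on feeder fibroblasts with LIF, serum and the 2i inhibitors and replated to remove the fibroblasts. The other 3 groups were HC11, a single wild-type line derived from COMMA-1D cells of a Balb/c mouse. Normal MEC (N) were grown to confluency with EGF and insulin. Primed MEC (P) were kept for 48 h without EGF, in less serum, with insulin and the glucocorticoid (GC) hydrocortisone, and PRL cells were primed cells given prolactin together with hydrocortisone and insulin for a further 72 h. EGF, serum, GC and time in culture therefore differ together between N and P, prolactin and time differ together between P and PRL, and N and ESC differ in cell type, strain and medium, so that within each comparison these cannot be told apart. Nothing in the labels says that the libraries of a group came from separate cultures, and p-values then measure only the spread between these samples. In bulk RNA, fewer cells of a type and less RNA per cell cannot be told apart either.

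The values rest on 11938392 to 33916913 fragments per library, with the ESC libraries the shallowest, and 3 fragments on a transcript of 1 kb equal 0.0885 to 0.251 FPKM. The 7 pluripotency markers summed to 5036 and 5065 FPKM in ESC and to at most 0.761 FPKM in an HC11 library, and the milk protein genes Csn2 and Wap had 111 to 128 and 8.39 to 9.51 FPKM in PRL against at most 0.320 FPKM elsewhere. The 2 ESC libraries were not alike in fibroblast markers, which summed to 597 FPKM in replicate 1 and 186 FPKM in replicate 2 (12 and 9 of the 14 markers at 1 FPKM or more), with Col1a1 at 114 and 13.3 FPKM and Lum at 0 in both. The median gene fell by 0.15 on the log2 scale from P to PRL and by 0.12 from N to PRL in the deposited FPKM, and scaling the libraries by median ratios took this shift to within 0.001 of 0. With that scaling the split of all called genes turned from 91 higher and 190 lower to 161 and 92 in PRL against P, and from 723 and 1057 to 986 and 830 in PRL against N. A gene is said to be called, to have risen or to have fallen where limma on log2(FPKM + 1) gave a log2 fold change of at least 1 in size with an adjusted p under 0.001.

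The one sequence feature that the members share is the BH3 helix, and the stretch that encodes its core is shown for the 2 genes of each role on which the results turn most. The longest coding sequence of each of the 10 genes was searched for 6 codons that encode leucine, any 3 residues, then glycine, alanine or serine, then aspartate, and each of the 10 held exactly 1 such match. The motif is short, and 34.0% of 21620 protein-coding genes hold it at least once, so it describes the members and does not single them out. Capitals mark the 6 codons, and 6 codons are shown in lower case on either side, 5′ to 3′ on the coding strand (GRCm38, GENCODE).
Bcl2l1, minus strand, chr2:152829688-152829741: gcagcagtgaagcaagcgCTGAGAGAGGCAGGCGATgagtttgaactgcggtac
Mcl1, plus strand, chr3:95659418-95659471: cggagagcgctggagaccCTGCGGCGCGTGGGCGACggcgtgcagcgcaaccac
Bmf, minus strand, chr2:118545091-118545144: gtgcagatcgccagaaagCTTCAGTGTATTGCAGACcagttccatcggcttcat
Bik, plus strand, chr15:83543066-83543119: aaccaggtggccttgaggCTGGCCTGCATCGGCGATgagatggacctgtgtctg
Bak1, minus strand, chr17:27022522-27022575: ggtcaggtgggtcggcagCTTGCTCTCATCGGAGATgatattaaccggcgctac
Bok, plus strand, chr1:93686639-93689179, split by an intron: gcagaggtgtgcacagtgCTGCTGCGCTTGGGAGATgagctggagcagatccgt

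The members were not expressed at one common level. In FPKM, which is a level per length, Mcl1 stood highest in ESC and in N, Mcl1 and Bcl2l1 stood close together in P, and Bcl2l1 stood highest in PRL. The order of these 2 genes in PRL depends on the gene length used. The deposited FPKM fit a length of 3195 bases for Bcl2l1 and 3487 for Mcl1, where the GENCODE exons hold 4586 and 3418 bases, and with the latter lengths Mcl1 stayed above Bcl2l1 in every library. Bcl2, the founding member, was near the limit of what was counted as expressed, and Bok and Bik were low in HC11 cells. Bcl2l1, Bmf and Bik were higher in P and PRL than in N, Bak1 was lower, and Bad, Bid and Mcl1 kept levels in the 3 HC11 groups that did not pass the thresholds in any comparison among them.

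**Figure D1:**
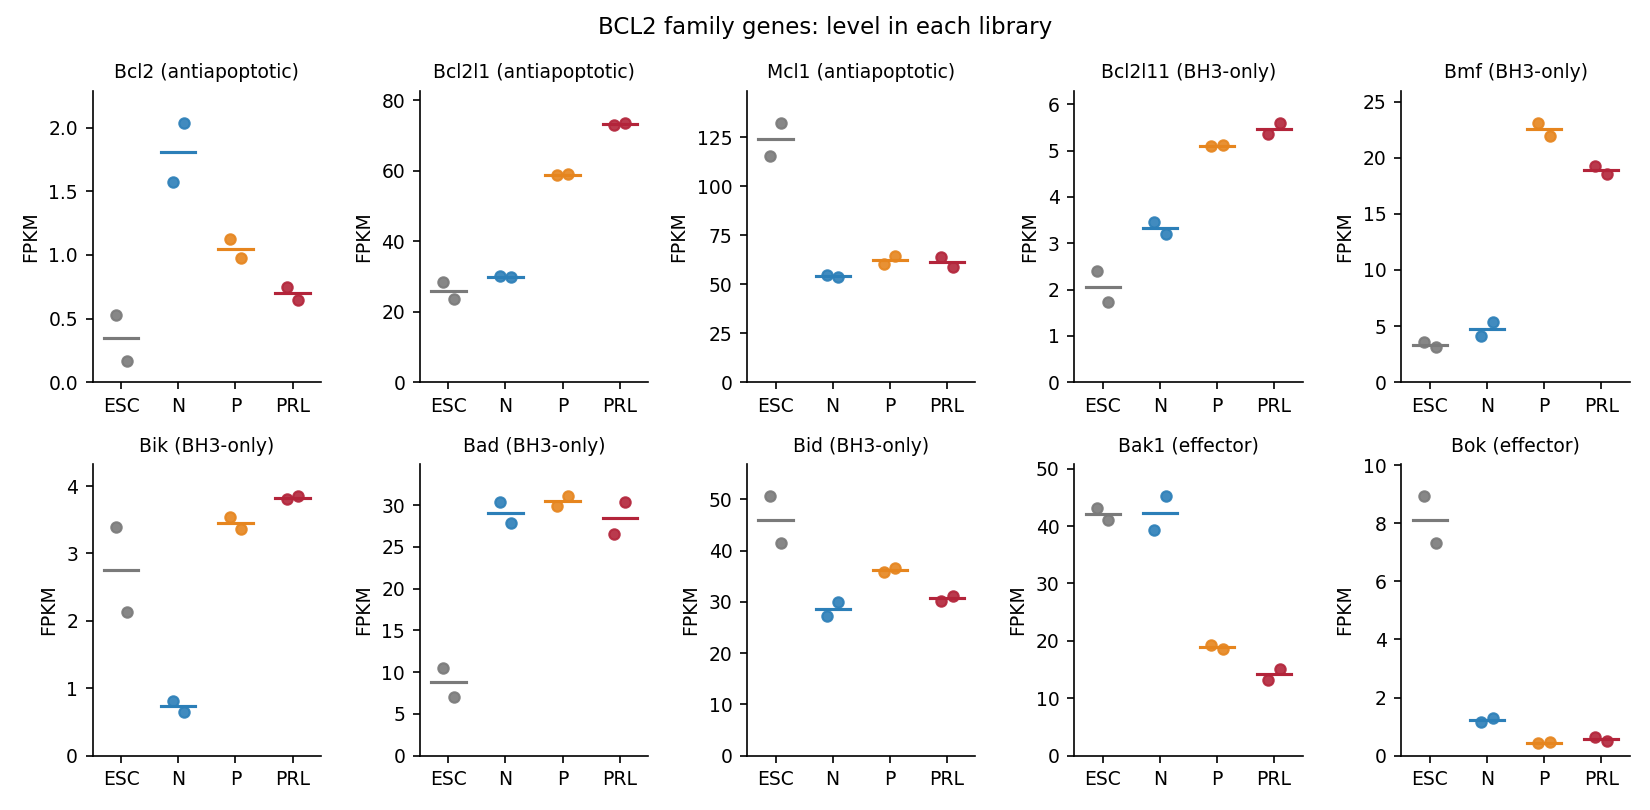
Level of each BCL2 family gene in FPKM (vertical axis, linear from 0, a separate scale for each gene) in ESC, N, P and PRL cells (horizontal axis). Each point is a library and each line the mean of the 2 libraries of a group. Bmf lies at 4.15 and 5.39 FPKM in N and at 18.5 to 23.1 FPKM in P and PRL, and Bak1 lies at 39.2 to 45.2 FPKM in ESC and N and at 13.2 to 19.2 FPKM in P and PRL.

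Bcl2l1 encodes BCL-XL, a main survival protein of epithelial cells, and is a gene of chromosome 2 (GRCm38, 152780668 to 152831728, minus strand). It had 28.4 and 23.5 FPKM in the 2 ESC libraries, 30.1 and 29.8 in N, 58.6 and 59.0 in P, and 72.9 and 73.5 in PRL. Every P library was above every N library, and every PRL library was above every P library. The mean of N was 29.9 ± 0.203 FPKM, that of P 58.8 ± 0.229 and that of PRL 73.2 ± 0.475 (SD, n = 2 libraries here and below). Bcl2l1 rose from N to PRL, 2.45-fold in FPKM (log2 fold change 1.26, standard error, SE, of 0.09, adjusted p = 5.9e-05). This call was lost without either N or either PRL library, with an adjusted p of up to 0.00139. From N to P the level was 1.97-fold higher, and the log2 fold change of 0.95 (SE 0.09, adjusted p = 0.000317) missed the fold threshold only. It was past it, at 1.00, after quantile normalization. From P to PRL the log2 fold change was 0.31 (SE 0.09, adjusted p = 0.0388), and 0.56 with median ratio scaling. With the 6 HC11 libraries alone it was 0.31 (SE 0.045, adjusted p = 0.000416), which is still short of the fold threshold. ESC and N did not differ past the thresholds (log2 fold change 0.20, 95% interval −0.02 to 0.42, adjusted p = 0.0791).

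Mcl1 encodes a short-lived survival protein on which stem cells and many epithelia depend, and lies on chromosome 3 (95658788 to 95663176, plus strand). Its levels were 115 and 132 FPKM in ESC, 54.6 and 53.6 in N, 60.4 and 64.5 in P, and 63.9 and 58.9 in PRL. The ESC libraries stood apart from the 6 HC11 libraries, and the P and PRL libraries overlapped. Mcl1 was 2.29-fold higher in ESC than in N and fell from ESC to N with a log2 fold change of −1.18 (SE 0.09, adjusted p = 2.3e-05), a call that was kept without each library in turn (adjusted p of at most 0.000494). Among the HC11 groups its log2 fold changes were 0.20 from N to P (adjusted p = 0.102), −0.03 from P to PRL (95% interval −0.23 to 0.18, adjusted p = 0.888) and 0.18 from N to PRL (adjusted p = 0.132). The value from P to PRL became 0.22 with median ratio scaling.

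Bcl2, a survival gene that many epithelial cells express weakly (chromosome 1, 106538178 to 106714274, minus strand), had 0.527 and 0.162 FPKM in ESC, from 60 and 15 fragments. It had 1.57 and 2.04 FPKM in N (284 and 361 fragments), 1.13 and 0.972 in P, and 0.750 and 0.644 in PRL. The order of the means was N, P, PRL and ESC, and no libraries of neighbouring groups overlapped. Bcl2 rose from ESC to N, 5.24-fold in FPKM (log2 fold change 1.07, SE 0.15, adjusted p = 0.000629). This log2 fold change is compressed by the added 1 at so low a level. With 0.1 added in place of 1 the log2 fold change was 2.22, but its SE was 0.40 and the call was lost (adjusted p = 0.00213). With no filter on low values the call was lost (adjusted p = 0.00135). It was also lost with a replicate block (0.00143) and when only the ESC and N libraries were fitted (0.00691). This call was lost without any library except ESC replicate 1, with an adjusted p of up to 0.00645. The decrease of the mean from N to PRL did not pass the thresholds (log2 fold change −0.72, SE 0.15, adjusted p = 0.00729), nor did that from N to P (−0.45, adjusted p = 0.0512) or from P to PRL (−0.27, adjusted p = 0.215, and 0.05 after quantile normalization).

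In the summed FPKM of the 3 antiapoptotic genes, Mcl1 held 82.4 ± 3.48% in ESC and 63.1 ± 0.396% in N, then 51.1 ± 1.10% in P and 45.4 ± 1.58% in PRL. Bcl2l1 held 17.4 ± 3.29%, 34.8%, 48.1 ± 0.990% and 54.1 ± 1.63% in the same order, with 34.8% in both N libraries. The ratio of Mcl1 to Bcl2l1 thus went from 4.85 ± 1.12 in ESC to 1.81 ± 0.0113 in N, 1.06 ± 0.0453 in P and 0.839 ± 0.0545 in PRL. In both P libraries Mcl1 was above Bcl2l1 (ratios of 1.03 and 1.09), and in both PRL libraries it was below (0.877 and 0.800). The ratio was lower in both PRL libraries than in both P libraries. With the exon lengths of GENCODE it was 1.56 ± 0.0657 in P and 1.23 ± 0.0797 in PRL, and Mcl1 then stayed above Bcl2l1. Other lengths multiply the ratio by the same factor in every library. They could not change its direction from P to PRL, so this is no check of the decrease. The sum leaves out Bcl2l2, another antiapoptotic gene, with means of 5.3, 14.0, 22.9 and 22.2 FPKM in ESC, N, P and PRL. These shares are a description of levels and were not tested.

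**Figure D2:**
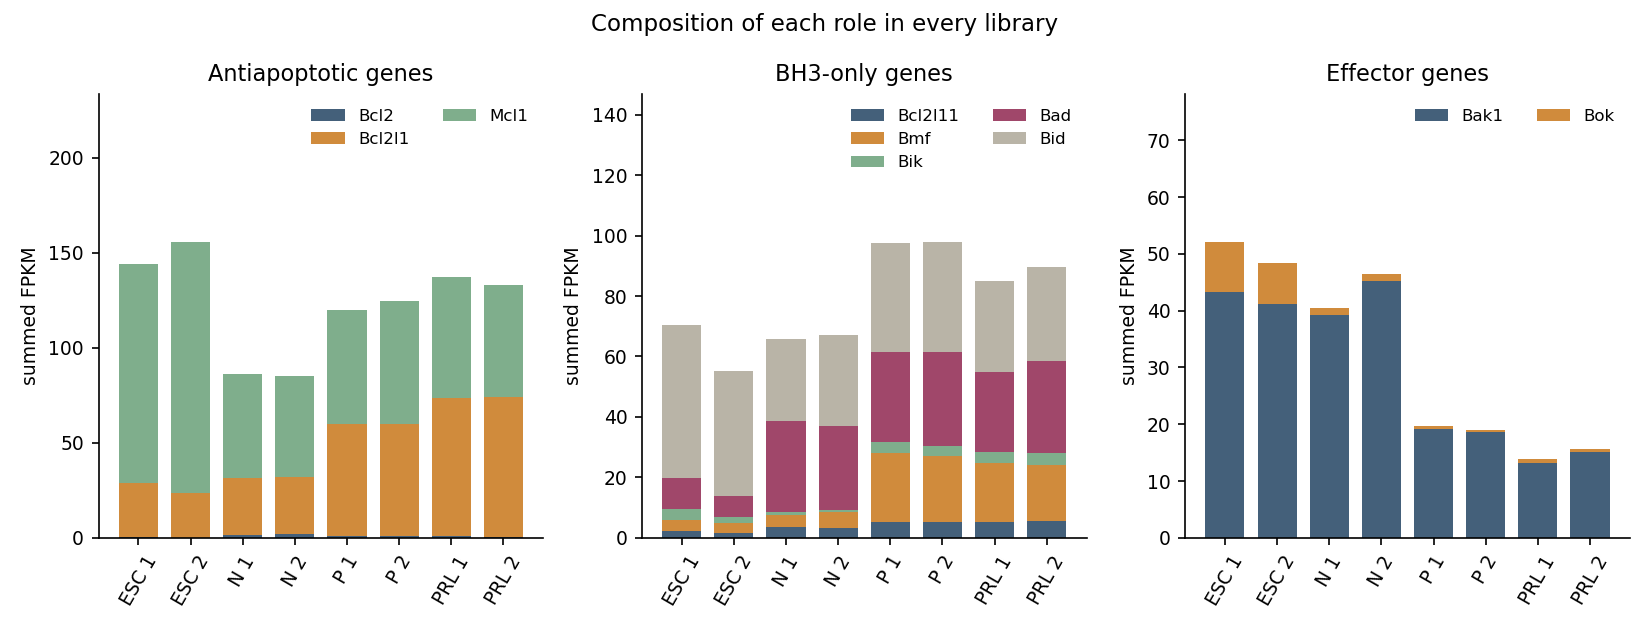
Summed FPKM (vertical axes, from 0) of the antiapoptotic, BH3-only and effector members in each of the 8 libraries (horizontal axes), with colours for the genes. Bax and Bcl2l2 are not among the members and are left out of these sums. The antiapoptotic sum is 85.4 and 86.3 FPKM in N and 120 to 137 FPKM in P and PRL, Bmf takes 22.4% and 23.7% of the BH3-only sum in P against 6.29% and 8.04% in N, and the effector sum is 40.4 and 46.5 FPKM in N and 13.9 to 19.7 FPKM in P and PRL.

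Bmf and Bik were the BH3-only genes called among the HC11 groups. BMF is held at the actin cytoskeleton with a dynein light chain in resting cells, and its gene lies on chromosome 2 (118528757 to 118549687, minus strand). Bmf had 3.60 and 3.09 FPKM in ESC, 4.15 and 5.39 in N, 23.1 and 22.0 in P, and 19.3 and 18.5 in PRL. All 4 P and PRL libraries lay above all ESC and N libraries. Bmf rose from N to P, 4.73-fold in FPKM (log2 fold change 2.04, SE 0.12, adjusted p = 4.6e-05), and was 3.96-fold higher in PRL than in N (log2 fold change 1.79, SE 0.12, adjusted p = 4.4e-05). The call from N to P was lost without either P library (adjusted p of up to 0.00126), and that from N to PRL without either PRL library (up to 0.00117), while the log2 fold changes stayed between 1.64 and 2.19. From P to PRL the value was −0.24 (SE 0.12, adjusted p = 0.168), and from ESC to N it was 0.40 (adjusted p = 0.0199).

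Bik, which encodes a BH3-only protein of the endoplasmic reticulum membrane (chromosome 15, 83526862 to 83544634, plus strand), was the other BH3-only gene that rose from N to P. Its levels were 3.39 and 2.13 FPKM in ESC, 0.818 and 0.648 in N, 3.54 and 3.36 in P, and 3.80 and 3.85 in PRL. The N libraries were the lowest, and they rest on 18 and 14 fragments against 78 to 123 in P and PRL. Bik was 4.70-fold higher in P than in N (log2 fold change 1.36, SE 0.16, adjusted p = 0.000813) and 5.22-fold higher in PRL than in N (log2 fold change 1.48, SE 0.16, adjusted p = 0.000385). It also fell from ESC to N, with a log2 fold change of −1.10 (SE 0.16, adjusted p = 0.000746). With no filter on low values the calls from N to P (adjusted p = 0.00192) and from ESC to N (0.00151) were lost. That from N to PRL was kept. Without each library in turn the log2 fold change of Bik stayed between 1.29 and 1.43 from N to P and between 1.41 and 1.55 from N to PRL. With the 6 HC11 libraries alone the adjusted p from N to P was 1.9e-06. All groups share 1 fit, so a library outside a comparison also bears on its p-value. The calls of Bik also depended on single libraries. Those among the HC11 groups were lost without any one of the 6 HC11 libraries (adjusted p of up to 0.0104 for P and 0.00547 for PRL), and that from ESC to N without any library except ESC replicate 2 (up to 0.00765).

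Bcl2l11 encodes BIM, a BH3-only protein that binds every antiapoptotic member and is induced by forkhead box O factors when growth factors are withdrawn (chromosome 2, 128126038 to 128162547, plus strand). It had 2.40 and 1.73 FPKM in ESC, 3.46 and 3.21 in N, 5.09 and 5.12 in P, and 5.35 and 5.60 in PRL. The groups did not overlap, and each stood above the one before it, but no step passed the thresholds. The log2 fold changes were 0.51 from ESC to N (adjusted p = 0.00742), 0.50 from N to P (SE 0.12, adjusted p = 0.0159), 0.08 from P to PRL (adjusted p = 0.652) and 0.58 from N to PRL (adjusted p = 0.00692). Bmf therefore stood at 1.44 ± 0.342 times the FPKM of Bcl2l11 in N and at 4.41 ± 0.176 times in P.

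Bad, whose protein is kept inactive by growth factor signalling through phosphorylation (chromosome 19, 6941861 to 6951899, plus strand), had 10.6 and 6.99 FPKM in ESC, 30.3 and 27.8 in N, 29.9 and 31.0 in P, and 26.5 and 30.4 in PRL. The HC11 groups overlapped with one another and all lay above ESC. Bad rose 3.32-fold from ESC to N (log2 fold change 1.65, SE 0.17, adjusted p = 0.000120), and this call was lost without either N library (adjusted p of up to 0.0018). Among the HC11 groups the 95% intervals of its log2 fold change were −0.34 to 0.47 (P against N), −0.51 to 0.31 (PRL against P) and −0.44 to 0.37 (PRL against N).

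Bid, which caspase 8 cleaves to link death receptors to mitochondria (chromosome 6, 120891930 to 120916853, minus strand), had 50.6 and 41.4 FPKM in ESC, 27.2 and 29.9 in N, 35.9 and 36.5 in P, and 30.2 and 31.1 in PRL. In the deposited FPKM it had the highest level of the 5 BH3-only members in every library except N replicate 1, where Bad was higher. Its difference between ESC and N had an adjusted p of 0.000948 and a log2 fold change of −0.66 (SE 0.10), which is short of the fold threshold. From N to P the log2 fold change was 0.33 (SE 0.10, adjusted p = 0.0370), from P to PRL −0.23 (adjusted p = 0.128) and from N to PRL 0.10 (adjusted p = 0.460), and the value from P to PRL was 0.0080 with median ratio scaling.

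As shares of the BH3-only sum, Bid held 73.3 ± 2.17% in ESC and 42.9 ± 2.43% in N, then 37.0 ± 0.339% in P and 35.1 ± 0.516% in PRL. Bad went from 13.8 ± 1.65% in ESC to 43.8 ± 3.15% in N and held 32.6 ± 2.02% in PRL. Bmf went from 7.17 ± 1.24% in N to 23.1 ± 0.905% in P and 21.7 ± 1.37% in PRL. Among these 5 members Bid thus held most of the sum in ESC, Bid and Bad held like shares in N, and Bmf was a further large part in P and PRL. The sum leaves out Bbc3 (PUMA), Pmaip1 and Hrk, 3 BH3-only genes that had means of 23.8, 16.6 and 5.47 FPKM in ESC, and with them Bid held 42.5 ± 2.06% in ESC. With the exon lengths of GENCODE the order of Bid, Bad and Bmf in P and PRL changed, with Bmf at 31.1% and Bid at 30.2% in P. The sum itself was 62.9 ± 10.7 FPKM in ESC and 66.5 ± 0.785 in N, then 97.8 ± 0.339 in P and 87.3 ± 3.04 in PRL.

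Both effector members had their lowest levels in P and PRL. Bak1 encodes BAK, a pore-forming protein that sits in the outer mitochondrial membrane (chromosome 17, 27019810 to 27029009, minus strand). Bak1 had 43.2 and 41.1 FPKM in ESC, 39.2 and 45.2 in N, 19.2 and 18.6 in P, and 13.2 and 15.2 in PRL. ESC and N overlapped, and every P and PRL library was below them. Bak1 fell from N to P (2.23-fold higher in N, log2 fold change −1.12, SE 0.10, adjusted p = 0.000208) and from N to PRL (2.97-fold higher in N, log2 fold change −1.51, SE 0.10, adjusted p = 3.5e-05). The call for P was lost without either N or either P library (adjusted p of up to 0.00375), and that for PRL was kept without each library in turn (at most 0.000706). From P to PRL the log2 fold change was −0.39 (SE 0.10, adjusted p = 0.0217). Between ESC and N it was −0.0014 (95% interval −0.23 to 0.23, adjusted p = 0.992), a value whose sign turned with median ratio scaling, with quantile normalization and without ESC replicate 1 or N replicate 1.

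Bok encodes a relative of BAX and BAK that is kept low by degradation in many cells (chromosome 1, 93685660 to 93695764, plus strand). Its levels were 8.93 and 7.31 FPKM in ESC, 1.17 and 1.28 in N, 0.436 and 0.454 in P, and 0.640 and 0.515 in PRL. ESC stood apart from all HC11 libraries, and Bok was 6.63-fold higher in ESC than in N (log2 fold change −2.03 from ESC to N, SE 0.11, adjusted p = 6.9e-06), which held without each library in turn (adjusted p of at most 0.000196). In P and PRL it rests on 15 to 25 fragments a library, and its log2 fold changes of −0.62 from N to P (adjusted p = 0.00499) and −0.50 from N to PRL (adjusted p = 0.0102) did not pass the thresholds. Bak1 held 83.9 ± 1.41% of the effector sum of Bak1 and Bok in ESC and 96.1% to 97.7% on average in the HC11 groups. This sum leaves out Bax, an effector with higher means of 326, 74.6, 58.85 and 68.3 FPKM in ESC, N, P and PRL.

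**Figure D3:**
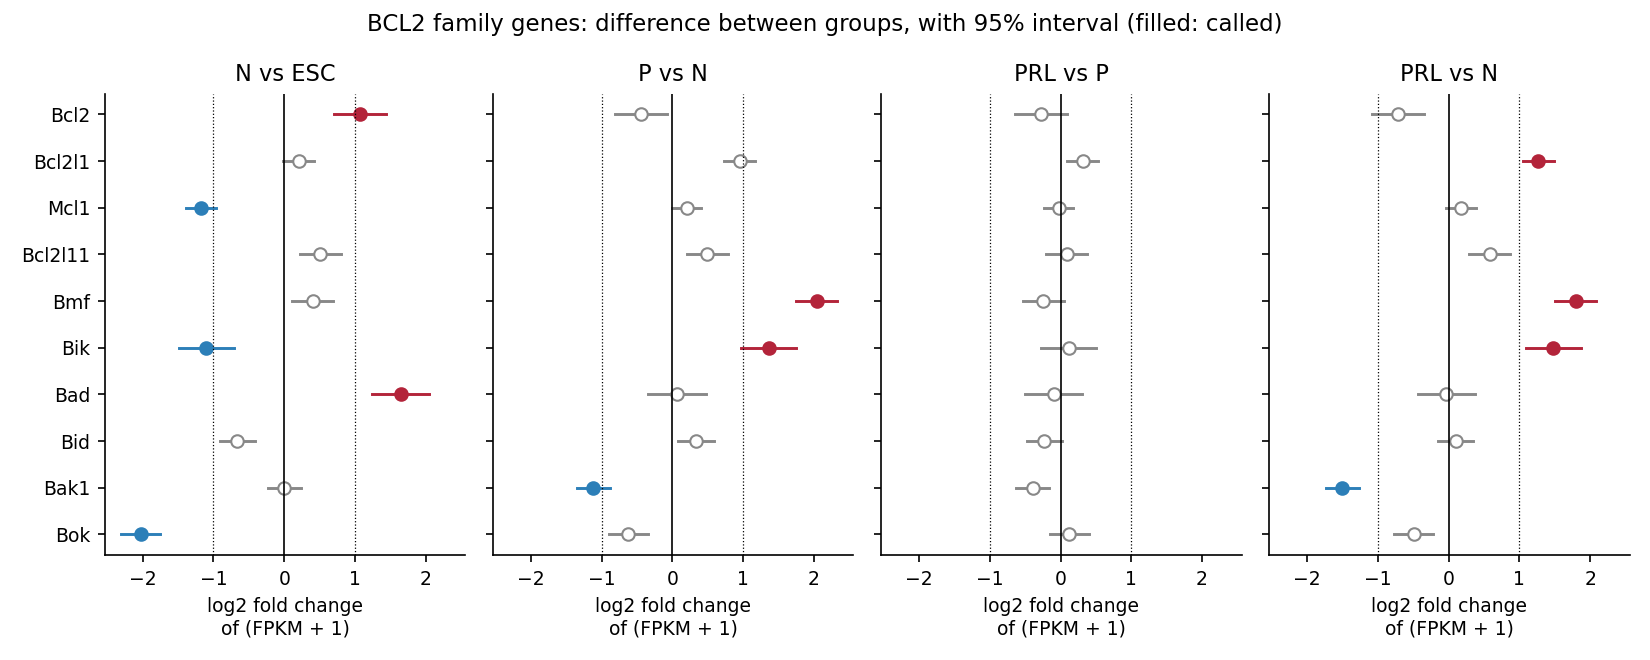
Log2 fold change of (FPKM + 1) of each member (horizontal axes) in 4 comparisons, each point with its 95% interval from limma. Filled points are called, red for higher and blue for lower in the first group named, and dotted lines mark log2 fold changes of −1 and 1. In PRL against P no point is filled and all intervals lie between −0.64 and 0.53, while Bmf, Bik and Bak1 are filled both in P against N and in PRL against N.

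Counted over the family, N against ESC had 5 of 10 members called, 2 higher in N (Bcl2 and Bad) and 3 lower (Mcl1, Bik and Bok), where 36.3% of all tested genes were called, 15.6% higher and 20.7% lower. P against N had 3 of 10 called, with Bmf and Bik higher and Bak1 lower, where 8.64% of all tested genes were called, 4.54% higher and 4.10% lower. PRL against P had 0 of 10 called by limma, where 2.13% of all tested genes were called, 0.689% higher and 1.44% lower. With the adjusted p threshold at 0.05 it also had 0, where 5.16% of all tested genes were called, and 2 members (Bcl2l1 higher, Bak1 lower) had an unadjusted p under 0.05, as did 45.8% of all tested genes. PRL against N had 4 of 10 called, Bmf, Bik and Bcl2l1 higher and Bak1 lower, where 13.5% of all tested genes were called, 5.47% higher and 8.0% lower. N serves both of the comparisons with P and with PRL, so the 3 genes that both name are not independent. Groups of libraries did not overlap for 9, 9, 8 and 9 members in these 4 comparisons, which with 2 libraries a group held for 86.6%, 80.6%, 79.9% and 82.2% of all tested genes. The median log2 fold change of the 10 members was 0.10, 0.27, −0.06 and 0.14, beside −0.07, 0.02, −0.15 and −0.12 for all tested genes.

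The count of calls depended on single libraries. In N against ESC it was 2 without either N library, 3 without any P or PRL library and 4 without either ESC library. In P against N it was 0 without either P library and 1 without either N library, and in PRL against N it was 1 without either PRL library and 2 without either N library. The counts over all tested genes fell as well, in P against N from 1141 to 311 and 326 without a P library and to 344 and 419 without an N library, and in PRL against N from 1780 to 833 and 858 without a PRL library and to 943 and 991 without an N library. The directions of all called members stayed the same without each library. In ESC, replicate 1 was higher than replicate 2 for 9 of the 10 members, all but Mcl1, beside its higher sum of fibroblast markers (597 against 186 FPKM), whose part in these values was not tested. Between N and P the fibroblast marker sum went from 676 and 682 to 1333 and 1233 FPKM (9 and 11 of 14 markers at 1 FPKM or more), of which Postn alone made 1175 and 1074 FPKM in P, while Col1a1 went from 16.7 and 16.8 to 1.76 and 1.48 FPKM and Lum was at 0 in both N libraries. Basal keratins and other basal markers summed to 4343 and 4265 FPKM in N and 1451 and 1467 in P. The means of Krt5, Krt14, Krt17 and Itgb4 were lower in P, and those of the other basal markers were higher. Krt15 went from 16.8 to 331 FPKM, Trp63 from 15.6 to 17.45 and Itga6 from 21.1 to 29.0. In PRL the fibroblast marker sum was 384 and 341 FPKM, below that of N, and the basal sum was 869 and 911. The part of these shifts in the values of Bmf, Bik, Bcl2l1 and Bak1 was not tested.

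The exons of 4 members overlap a gene on the opposite strand in the GENCODE annotation, and the library kit does not mark the strand, so that fragments of the shared stretch cannot be told apart. Bak1 shares 614 of its 2407 exon bases with Ggnbp1, Bad 524 of 2558 with Gpr137, Bid 628 of 3550 with Bcl2l13, and Bcl2 558 of 9157 with D630008O14Rik. Ggnbp1 had 1.42 and 1.37 FPKM in N and 4.44 and 3.76 in P, the opposite direction to Bak1, and at most 4.55 FPKM in any library. Gpr137 had 4.91 and 3.12 FPKM in ESC and 10.8 and 9.31 in N, the same direction as Bad, which had 27.8 and 30.3 FPKM in N. Bcl2l13 had 15.5 and 15.0 FPKM in N and 9.98 and 10.5 in P, the opposite direction to Bid. D630008O14Rik was not among the genes measured. The FPKM of these genes may hold fragments of the shared stretches too, and the part of the overlaps in the members' values was not tested.

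The promoters of the members, from 250 bases before to 50 after a start site, were searched on both strands for 3 motifs (RefSeq, GRCm38.p6). In all, 15 promoters of 9 members were matched, and Bik had no entry. The forkhead box O motif GTAAACA was in 1 of the 15, a promoter of Bcl2l11, and in 3.65% of all 32851 promoters. AGAACA, one arm of the glucocorticoid receptor motif, was in 1 of the 15, that of Bok, and in 19.0% of all, and the STAT motif TTCNNNGAA in 0 of the 15 and in 8.30% of all. The motif of Bcl2l11 begins 227 bases before the start site and is shown in capitals, 5′ to 3′ on the plus strand.
Bcl2l11, chr2:128125791-128125837: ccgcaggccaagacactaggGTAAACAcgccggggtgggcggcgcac
A match of these letters is a description of the window and not a binding site. The RNA of Bcl2l11 was not called in any comparison, and a link to the motif was not tested.

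For the 3 members called between N and P, the genes with the most similar course over the 8 libraries were sought by Pearson correlation of log2(FPKM + 1). The libraries form 4 groups of 2, so the coefficients describe these libraries and carry no test. Bmf was nearest to Cytl1 (r = 0.998), Sds and Hapln1. Cytl1, a secreted cytokine-like protein, had 0 in both ESC libraries, 0.572 and 0.897 FPKM in N, 26.9 and 26.1 in P, and 19.9 and 15.5 in PRL. Bik was nearest to Rogdi (r = 0.998), H2-Ke6 and Cd81. Cd81, a tetraspanin of the cell surface, had 127 FPKM in both N libraries and 344 to 370 in P and PRL. Bak1 was nearest to Ncapg2 (r = 0.997), Diap3 and Isyna1. Ncapg2, a subunit of condensin II, had 6.23 and 7.17 FPKM in N, 1.30 and 1.42 in P, and 0.480 and 0.505 in PRL. With the 6 HC11 libraries alone, 0 of these 9 genes stayed among the 3 nearest of their member.

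The rest of the family was followed through a list of 17 further genes, of which 10 were tested. From ESC to N 3 rose and 4 fell, from N to P and from P to PRL 0 were called (3 and 4 at an unadjusted p under 0.05, which 53.2% and 45.8% of all tested genes had), and from N to PRL 1 rose. Calls over all tested genes were 36.3% (ESC to N), 8.64% (N to P), 2.13% (P to PRL) and 13.5% (N to PRL). The median log2 fold change of the list was −0.13 from N to P and 0.02 from P to PRL. Bax, the effector that works beside BAK, fell from 282 and 370 FPKM in ESC to 67.4 and 81.9 in N (log2 fold change −2.10, SE 0.14, adjusted p = 1.6e-05). It had 58.4 and 59.3 FPKM in P and 68.5 and 68.2 in PRL, and its log2 fold change of −0.33 from N to P did not pass the thresholds (adjusted p = 0.102), though both P libraries were below both N libraries. Pmaip1, which encodes the MCL1-binding protein NOXA, fell from 20.2 and 13.0 FPKM in ESC to 0.468 and 0.428 in N (log2 fold change −3.57, SE 0.19, adjusted p = 5.2e-06). Hrk, another BH3-only gene, had 4.59 and 6.35 FPKM in ESC and was listed at 0 in both N libraries. Pmaip1 and Hrk, which are among the 4 that fell, reached 1 FPKM only in the ESC libraries. They passed the filter only through the group in which they were high. Bnip3, a mitophagy receptor that hypoxia induces, rose from 10.1 and 6.49 FPKM in ESC to 209 and 200 in N (log2 fold change 4.50, SE 0.17, adjusted p = 1.1e-06) and further to 567 and 551 in PRL, 2.73-fold above N (log2 fold change 1.45, SE 0.17, adjusted p = 0.00049). The latter call was lost without any one of the 6 HC11 libraries and with no filter on low values.

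**Figure D4:**
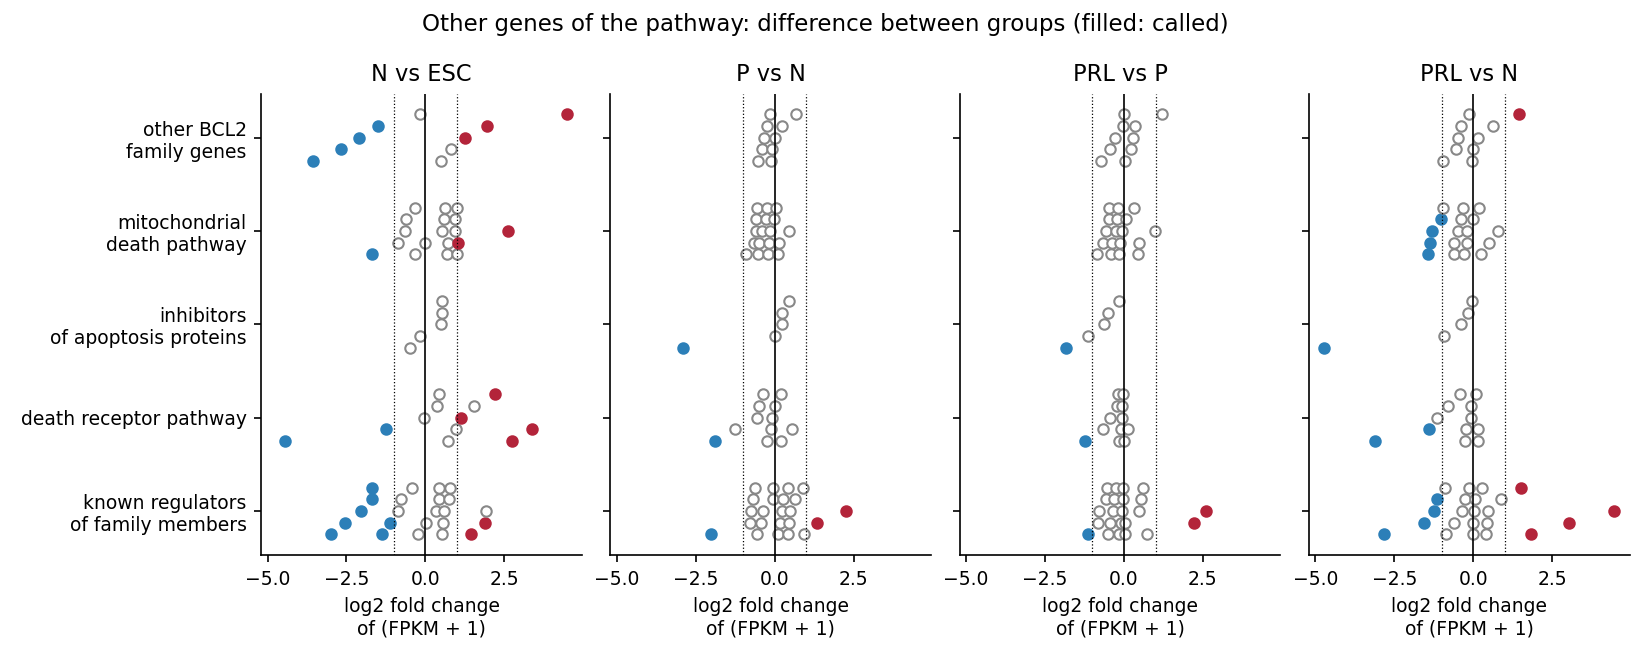
Log2 fold change of (FPKM + 1) (horizontal axes) of the tested genes of 5 lists (rows) in 4 comparisons. Each point is a gene, spread vertically only to be seen, filled where called (red higher, blue lower in the first group named), and dotted lines mark −1 and 1. In P against N and in PRL against P the 10 tested genes of the rest of the family and the 18 of the mitochondrial pathway show 0 filled points. Of all tested genes 8.64% and 2.13% were called in these comparisons.

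Downstream of the family, all 18 genes of the mitochondrial death pathway were tested. From ESC to N 2 rose and 1 fell, from N to P and from P to PRL 0 were called (9 and 11 of the 18 at an unadjusted p under 0.05, beside the 53.2% and 45.8% of all tested genes), and from N to PRL 4 fell and 0 rose. All tested genes had 36.3%, 8.64%, 2.13% and 13.5% called in the same order. Htra2 and Apaf1 were among the 4 that fell. Htra2, a mitochondrial protease, fell from 36.5 and 35.1 FPKM in N to 12.9 and 13.5 in PRL (adjusted p = 0.000111, log2 fold change −1.37, SE 0.11). The call of Htra2 was lost without either N or either PRL library, and that of Apaf1, which builds the apoptosome, without any one of the 6 HC11 libraries. That of Apaf1 was also lost with median ratio scaling, with quantile normalization and with a replicate block. Casp6 rose 7.52-fold from ESC to N (log2 fold change 2.61, SE 0.14, adjusted p = 4.9e-06).

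Of 9 inhibitors of apoptosis proteins 5 were tested, and only Birc5 was called among the HC11 groups. Beside this, 8.64%, 2.13% and 13.5% of all tested genes were called in P against N, PRL against P and PRL against N. Birc5 encodes survivin, which also serves chromosome segregation in dividing cells, and went from 57.8 and 54.3 FPKM in N to 6.40 and 6.70 in P and 1.20 and 1.07 in PRL. It fell from N to P (log2 fold change −2.92, SE 0.18, adjusted p = 4.7e-05) and again from P to PRL (−1.82, adjusted p = 0.000909). The former call was lost without either N or either P library, and the latter without any one of the 6 HC11 libraries. The latter was also lost with median ratio scaling, with quantile normalization, with no filter on low values and with a replicate block. Xiap, which blocks caspases directly, had 15.5 and 14.9 FPKM in P and 5.98 and 6.64 in PRL (log2 fold change −1.15, SE 0.14, adjusted p = 0.00177).

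In the death receptor pathway 12 of 15 genes were tested, with 4 higher and 2 lower in N than in ESC, 0 higher and 1 lower in P than in N, 0 and 1 in PRL than in P, and 0 and 2 in PRL than in N. Shares called over all tested genes were 36.3%, 8.64%, 2.13% and 13.5% in the same order. Ripk3, among the 2 lower in N than in ESC, reached 1 FPKM only in the ESC libraries. Tnfsf10, the ligand TRAIL, reached it only in those of N and P, so both passed the filter where they were high. Tnfsf10 accounted for the calls from N to P and from P to PRL. It had 9.99 and 10.6 FPKM in N, 2.02 and 2.06 in P, and 0.371 and 0.227 in PRL, and fell from N to P (log2 fold change −1.89, SE 0.10, adjusted p = 2.7e-05) and from P to PRL (−1.23, SE 0.10, adjusted p = 0.000566). The step from N to P held without each library, and that from P to PRL was lost without any one of the 6 HC11 libraries. The call from P to PRL was also lost with 0.1 added in place of 1, with no filter on low values, with quantile normalization and with a replicate block. Casp8, the caspase that cleaves BID, rose from 1.95 and 0.811 FPKM in ESC to 15.2 and 13.7 in N (log2 fold change 2.74, SE 0.21, adjusted p = 3.0e-05).

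Among 24 known regulators of the family 23 were tested. In N 2 were higher and 7 lower than in ESC, and in P 2 were higher and 1 lower than in N. In PRL 2 were higher and 1 lower than in P, and 4 higher and 4 lower than in N. Over all tested genes 36.3%, 8.64%, 2.13% and 13.5% were called in these comparisons. Trp73, among the 7, reached 1 FPKM only in the ESC libraries, so it passed the filter where it was high. Pim3, a kinase that can phosphorylate BAD, had 114 and 122 FPKM in ESC, 14.5 and 13.7 in N, 71.5 and 71.1 in P, and 333 in both PRL libraries. It fell from ESC to N (log2 fold change −2.98, adjusted p = 1.2e-07) and rose from N to P (2.26, SE 0.06, adjusted p = 3.8e-06) and from P to PRL (2.21, SE 0.06, adjusted p = 3.3e-05), the last of which was lost without any P or PRL library (adjusted p of up to 0.00481). Foxo3, a transcription factor that can induce Bcl2l11, rose 2.79-fold from N to P, from 6.86 and 6.14 to 18.4 and 17.8 FPKM (log2 fold change 1.35, SE 0.10, adjusted p = 0.000126), a call lost without any N or P library (up to 0.00265). Sfn, a 14-3-3 protein of epithelial cells, fell from 62.1 and 68.4 FPKM in N to 15.2 and 15.7 in P (adjusted p = 9.1e-06, log2 fold change −2.01, SE 0.07). Ddit3, the stress factor CHOP that can induce Bcl2l11 and repress Bcl2, had 24.6 and 19.5 FPKM in P and 128 and 151 in PRL, a 6.33-fold increase of the mean (log2 fold change 2.61, SE 0.16, adjusted p = 0.000287). Usp9x, which removes ubiquitin from MCL1, had 19.7 and 19.6 FPKM in P and 8.66 and 8.16 in PRL (log2 fold change −1.14, SE 0.06, adjusted p = 0.000225). The calls of Ddit3 and Usp9x from P to PRL were lost without any one of the 6 HC11 libraries and with a replicate block. That of Usp9x was also lost with median ratio scaling and with quantile normalization. Bcl2l11, Bcl2 and Mcl1 were called neither from N to P nor from P to PRL. Bcl2l11 had a log2 fold change of 0.50 from N to P (adjusted p = 0.0159), short of the thresholds. RNA levels do not measure ubiquitin on the MCL1 protein. The part of these regulators in the values of the members was not tested.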

How the data were processed

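The expression table holds FPKM, which the authors deposited for 24062 genes in 8 libraries. Per the study's methods, ribosomal RNA was removed, polyadenylated RNA enriched, and NEBNext Ultra paired-end libraries sequenced. Adaptors were trimmed with Trimmomatic, reads mapped to GRCm38/mm10 with TopHat 2.1.0 (2 mismatches) and assigned to genes by featureCounts (Subread 1.5.0). Which annotation and strand setting served is not given in the sources used here. Each FPKM is a whole number of fragments: in 1000 of 1000 genes drawn at random 1 gene length gave whole fragments in every library within 0.001 fragments, and these fragments state the depth only. The authors' DESeq2 tables hold mean counts, log2 fold changes, standard errors and p-values and were not used.

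Genes with at least 1 FPKM in at least 2 libraries were tested with limma 3.58.1 (trend and robust options, R 4.3.3, statmod 1.5.0) on log2(FPKM + 1), 4 groups in one fit with 4 residual degrees of freedom. Fold changes on this scale are understated for low genes. P-values are two-sided and Benjamini-Hochberg adjusted over all tested genes. Calls need a log2 fold change of at least 1 in size and an adjusted p under 0.001, thresholds taken from the study's methods. The script was tested on simulated data. Sequences, positions and overlaps came from GENCODE and RefSeq tables of GRCm38 (Python 3.11.15, pandas 2.3.3, Biopython 1.88).

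The members, lists and tests were chosen with earlier results of these data known. Named were all members, for every list in every comparison at most 3 called genes with the largest change and 2 others with the highest FPKM, the 3 genes nearest to each member called between N and P or between P and PRL, markers, and genes that overlap a member. Of these the text gives part, and some called genes of the mitochondrial death pathway are not reported here. Apaf1 in PRL against N was named after its values were seen, as 1 of a count of 4, and so was Bbc3. The lengths behind the deposited FPKM differ from the exon lengths of GENCODE, which bears on levels compared between genes and not on a gene compared between groups. Alternatives were other pseudocounts, filters and scalings, a replicate block, fits of fewer groups, a looser p and leaving out each library.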

Additional observations from a re-analysis of the deposited data

How the results depend on the processing

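Of 700 values of members under an alternative, 633 kept their direction and their side of the thresholds, 50 kept the direction but lost the call, 1 gained one (Bcl2l1 from N to P after quantile normalization) and 16 turned direction. A value that was not called counts as kept unless it gained a call or turned direction, and a looser p could lose no call. The 633 therefore do not measure how stable the calls were. The 50 lost calls fell on Bcl2, Bik and Bad in N against ESC and on Bmf, Bik and Bak1 in P against N. In PRL against N they fell on Bmf, Bik and Bcl2l1. The calls of Mcl1 and Bok in N against ESC and of Bak1 in PRL against N were not lost under any alternative. The calls in N against ESC, 5 here, were 3 with no filter on low values. They were 3 with a filter at 5 FPKM, which 8 members passed, and 2 when only the libraries of these 2 groups were fitted. In P against N the calls, 3 here, were 2 (Bmf and Bak1) with no filter and with the filter at 5 FPKM. Leaving out 1 library gave 2 to 4 calls in N against ESC, 0 to 3 in P against N, 1 to 4 in PRL against N and 0 in PRL against P, where every other alternative also gave 0. In PRL against P the fits without an N, P or PRL library called only 0 to 18 genes in all, so that 0 members there says nothing of stability. Over all tested genes PRL against P had 281 calls, 110 with no filter, 45 with a replicate block, 652 with the 6 HC11 libraries alone and 679 with its own 2 groups alone, and N against ESC had 4795, or 2524 with its own 2 groups alone. The replicate numbers showed no sign of pairing, as the deviations of same-numbered libraries correlated at −0.03 to 0.08 between groups. Taken over all tested genes, such a correlation cannot exclude pairing that touches part of them. With a replicate block 4, 2, 0 and 4 members were called in N against ESC, P against N, PRL against P and PRL against N, without Bcl2 in the first and Bik in the second. The number of nearest genes kept among the 3 nearest went from 9 to 0 with the 6 HC11 libraries alone. Directions turned only in values that were not called. With median ratio scaling the log2 fold change became 0.0209 for Bak1 in N against ESC, 0.22 for Mcl1, 0.14 for Bad and 0.0080 for Bid in PRL against P, and 0.17 for Bad in PRL against N. With quantile normalization it became 0.0589 for Bak1 in N against ESC, 0.0549 for Bcl2, 0.0186 for Mcl1 and 0.0229 for Bad in PRL against P, and 0.0941 for Bad in PRL against N. Leaving out 1 library gave −0.10 to 0.10 for Bak1 in N against ESC (0.03 without ESC replicate 1, 0.10 without N replicate 1), −0.0838 to 0.0336 for Mcl1 in PRL against P (0.0212 without P replicate 2, 0.0336 without PRL replicate 2) and −0.13 to 0.0628 for Bad in PRL against N (0.0266 without N replicate 1, 0.0628 without PRL replicate 1). The cause was not tested. Chosen after seeing the data, adding Bbc3, Pmaip1 and Hrk to the BH3-only sum gave Bid 42.5%, 38.3%, 34.96% and 32.4% of it in ESC, N, P and PRL, and Bmf 3.10%, 21.8% and 19.97% in ESC, P and PRL. GENCODE exon lengths gave Bid 68.0%, 37.9%, 30.2% and 28.6% in the same 4 groups and Bmf 8.21%, 10.5%, 31.1% and 29.2%. Depth limits the values of Bcl2 and Bik in ESC, of Bik in N and of Bok in N, P and PRL, which rest on 14 to 60 fragments a library.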
